A study of Arabidopsis thaliana with 20 samples.

Results

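Among the small interfering RNAs (siRNAs) of de-etiolating Arabidopsis seedlings, a small set was higher after 12 h of light than in the dark. The median siRNA was lower at 12 h in replicates 1 and 2 and not in replicate 3. The set was chosen on the outcome itself: an siRNA was a member if its value was above 0 in all 15 libraries from 0 to 12 h and if its 12 h value was at least 1.5 times its dark value in each of the 3 replicates. Of 4255 siRNAs in the deposited table, 2855 were above 0 in all 15 libraries, and 48 of these (1.68%) met the rule. Because the 0 h and 12 h values picked the members, their 12 h to 0 h ratios are given below as a description, without a test.

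The seedlings were wild-type Col-0 grown for 4 days in darkness and then moved to continuous white light (labelled 100 mE). Aerial tissue was taken in the dark (W0h) and then at 5 times in light: 1 h, 3 h, 6 h, 12 h and 24 h (W1h to W24h). Each time point had 3 biological replicates, which shared genotype and growth and differed in the time in light and in the kit, since replicate 3 was prepared with another small RNA kit than replicates 1 and 2. A degradome library, which records the 5′ ends of cleaved mRNAs, was made once from dark tissue and once from an equal mix of the light time points.

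Most plant siRNAs are cut from double-stranded RNA by Dicer-like enzymes and are loaded, largely by their first base and length, into Argonaute proteins that silence transcripts or chromatin. Reads of the same size also come from abundant structural RNAs: fragments of transfer RNAs, ribosomal RNAs and the small nuclear RNAs of the spliceosome are found in plant small RNA libraries. Variants of a microRNA with other ends or bases (isomiRs) are a further class that is not listed under the microRNA's own name. De-etiolation, the change from growth in the dark to a green seedling, includes the building of chloroplasts, which carry their own tRNA and rRNA genes.

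Values are mapped-read counts scaled to a common library size (reads per 1000000 mapped reads, RPM), and the library totals recovered from the steps between values were 17579785 to 21516866 reads, so that 1 read was worth 0.0465 to 0.0569 RPM. In replicate 1 the W1h and W3h libraries held identical read numbers for every one of the 3618 siRNAs above 0 in both, whereas the next most alike pair of libraries shared 8.05% of its read numbers. The microRNA values of these libraries were not identical (the SD of their log2 ratios over 207 microRNAs was 0.57). It cannot be told which time point the shared siRNA values belong to, so the tests and counts that use W1h or W3h are given with and without both libraries. From W0h to W12h the same siRNAs were at 0 in all 3 replicates of a time point. At 24 h, the siRNA values of replicates 2 and 3 bore no relation to those at 12 h: the correlation of log2 RPM between W24h and W12h was -0.04 in replicate 2 and 0.03 in replicate 3 over 2207 siRNAs, against 0.91 in replicate 1 over 2579. Only W24h of replicate 1 is used below.

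Sequences were at hand for 16 of the 48 members and for 624 of the 2855 tested siRNAs. The kinds of RNA described below are drawn from these members and not from the whole set. The largest group among the 16 were fragments of the 5′ end of tRNA-Glu, the carrier of glutamate. They are printed with the bases at nucleotides 1 to 3 of the tRNA in capitals, since they differ in their starting nucleotide. The last 3 are not members and are shown for comparison.
SRNA11153147: CCgatgtcgtccagcggttagg
SRNA11153148: CCgatgtcgtccagcggttagga
SRNA11153156: CCgatgtcgtccagcggttaggat
SRNA12022397: Cgatgtcgtccagcggttaggat
SRNA20955720: TCCgatgtcgtccagcggttagga
SRNA20955719: TCCgatgtcgtccagcggttagg
SRNA11385534: CCgttatcgtccagcggttaggat
SRNA10488238: CCattgtcgtccagcggttaggat

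The 5 member fragments lie in one stretch of the same tRNA-Glu genes and cannot be assigned to a single gene. SRNA11153156 matched 6 annotated tRNA-Glu genes exactly in TAIR10, among them AT1G09110 on chromosome 1 (2939417 to 2939488, plus strand), in which the fragment covers 2939418 to 2939441. In replicate 1 its level was 16.8 RPM at W0h, 14.7 at W1h, 15.9 at W3h, 66.6 at W6h and 205 at W12h. In replicate 2 the same levels were 13.3, 9.73, 15.9, 56.4 and 208 RPM. Replicate 3 was far lower, with 1.19, 1.43, 1.48, 3.70 and 4.72 RPM. The level at 6 h was above those from 0 to 3 h in every replicate and that at 12 h was higher again, with 12 h to 0 h ratios of 12.2, 15.6 and 3.97.

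The 23 nt form SRNA11153148 went from 2.70 to 22.8 RPM in replicate 1, from 1.41 to 24.9 RPM in replicate 2 and from 0.397 to 0.683 RPM in replicate 3. The 22 nt form SRNA11153147 went from 0.165 to 1.70, from 0.163 to 1.49 and from 1.59 to 3.36 RPM. It was the only one of the 5 to be highest in replicate 3. SRNA12022397, which starts 1 nucleotide further in, went from 1.16 to 6.32, from 0.869 to 5.79 and from 0.0567 to 0.398 RPM, the last of these from 1 read to 7 reads. SRNA20955720 begins at the first nucleotide of the tRNA and went from 11.6 to 18.1, from 12.4 to 19 and from 0.737 to 2.10 RPM. Its ratios of 1.57 and 1.54 in replicates 1 and 2 were the lowest of the 5, while its ratio of 2.86 in replicate 3 was above those of SRNA11153148 (1.72) and SRNA11153147 (2.11).

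The 12 h to 0 h ratios of all known tRNA-Glu fragments are set side by side here as a description, since they are the measure that picked the members. Of 6 fragments starting at nucleotide 2 or 3 with values in the dark and at 12 h, 4 are the members above. The other two, SRNA11385534 and SRNA10488238, come from tRNA-Glu genes that differ from the members' genes at 2 bases (A4T and G6A, and G3A and A4T, counted from the fragment's 5′ end and read against SRNA11153156). Their ratios were 9.30, 23.7 and 3.51, and 8.67, 25.4 and 5.02, from 2 to 4 reads in the dark in replicates 2 and 3, and they were listed at 0 at 1 h in light (SRNA10488238 also at 3 h), which kept them out. A further fragment starting at nucleotide 3, SRNA12022398, was listed at 0 in the dark in all 3 replicates, so it has no ratio. In replicates 1, 2 and 3 it had 16.9, 12.5 and 0.0528 RPM at W1h and 92.9, 84.2 and 0.284 RPM at W12h. Ratios of the 18 fragments starting at nucleotide 1 ran up to 1.57 in replicate 1 and 2.61 in replicate 2, below those of the 6 (5.46 to 12.2 and 6.66 to 25.4). In replicate 3 the groups overlapped, with 1.26 to 6.77 for the 18 and 1.72 to 7.02 for the 6. SRNA20955719, which starts and ends 1 base before SRNA11153148, had ratios of 0.916, 1.00 and 3.23. The 19 fragments starting at nucleotides 12 to 22 had median ratios of 0.532, 0.559 and 1.52.

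Between 1 h and 6 h, the fitted log2 difference (W6h minus W1h) was 0.83 to 2.00 in the 4 members starting at nucleotide 2 or 3, with a median of 1.56. In the 17 tested fragments starting at nucleotide 1 it was -1.11 to 0.58 with a median of -0.18, and in the 13 starting further in it was -1.69 to 1.30 with a median of -1.07. Without the identical libraries the first group had 0.78 to 1.88, and the others reached 0.94 and 1.33, with medians of 1.40, 0.16 and -0.80. The highest value of the last group was that of SRNA16672911, and with the identical libraries left out the first group overlapped with fragments starting at nucleotide 1 as well. All 4 of the first group are members, and the fragments overlap in sequence, so these counts are a description. One member lay further inside a tRNA-Glu of another sequence, SRNA16672911, at nucleotide 15 of the tRNA in 10 genes, for example AT1G29210 (fragment at chromosome 1, 10207345 to 10207364, minus strand). It rested on 1 read at W0h in replicates 1 and 2 and on 27 reads in replicate 3, and its ratios were 2.99, 10.8 and 1.52.
SRNA16672911: gctggtcaggatactcggct

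A further 3 members carry a base that the genome does not have at that place, and that base is in capitals. They are shown with a relative that matches the genome. The first 3 lines are 24 nt fragments of the 5′ end of tRNA-Val that differ only at base 9, and the third of them, SRNA17917194, which matches the genome, is not a member. The last line is a fragment of tRNA-Glu.
SRNA17917348: ggtttcgtTgtgtagttggttatc
SRNA17917023: ggtttcgtCgtgtagttggttatc
SRNA17917194: ggtttcgtGgtgtagttggttatc
SRNA9818681: caggagacccgggttcgTttcccg

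Read against the tRNA-Val genes, SRNA17917348 has T9G and SRNA17917023 has C9G as its only difference (the fragment's base first, counted from its 5′ end, then the genome's). SRNA17917023 was the more abundant of the pair and went from 7.22 to 12.5 RPM in replicate 1, from 7.12 to 12.8 in replicate 2 and from 4.31 to 11 in replicate 3, with higher values at 6 h than at 12 h in replicates 1 and 2. SRNA17917348 went from 0.827 to 1.54, from 0.978 to 2.28 and from 0.283 to 0.796 RPM. The genome-matched SRNA17917194 had ratios of 1.34, 1.51 and 2.59, so it too was higher at 12 h in each replicate and missed the rule in replicate 1. SRNA9818681 differed from 10 tRNA-Glu genes by T18A, a base that lies at nucleotide 57 of the tRNA, and had ratios of 3.13, 1.89 and 2.68 from levels below 1 RPM in the dark.

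Mean ratios here are geometric means over the 3 replicates. By these, the member with the largest mean ratio came from the chloroplast, as did that with the third largest, and both are shown. SRNA22803624 matched the chloroplast 16S rRNA genes (chloroplast 102101 to 102120, plus strand, and 136529 to 136548, minus strand), 1090 nucleotides into the RNA of the small ribosomal subunit. SRNA14975183 lay at chloroplast 7852 to 7871 on the minus strand, within trnS, the gene of a serine tRNA at 7785 to 7872. It begins at the second nucleotide counted from that gene's end, and the RefSeq annotation places the gene on the other strand. For that reason SRNA14975183 is not counted among the tRNA fragments below. Whether the annotated strand is right was not tested. Capitals in SRNA14975183 mark bases 2 to 10, the stretch that faces the cleavage site described below.
SRNA22803624: tggaaccctgaacagactgc
SRNA14975183: gAGAGATGGCtgagtggact

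In the 3 replicates SRNA22803624 had levels at W0h of 0.386, 0.652 and 2.89 RPM, at W6h of 2.49, 1.45 and 11 RPM, and at W12h of 7.09, 6.96 and 28.3 RPM. All 3 values at 12 h were above all 3 in the dark, and the ratios were 18.4, 10.7 and 9.80. SRNA14975183 went from 1.82 to 15.4, from 0.598 to 14.7 and from 0.397 to 1.19 RPM, with the highest level from W0h to W12h at 12 h in each replicate. Of 17 known siRNAs with an exact chloroplast match, 13 were at 0 in some of the 15 libraries, 4 could be tested and 2 were members.

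A nuclear rRNA fragment and 2 snRNA fragments completed the structural RNAs among the members with a sequence. SRNA14814416 begins 78 nucleotides into the 18S rRNA of the cytosolic ribosome (chromosome 2, 3783 to 3803, and chromosome 3, 14197754 to 14197774, plus strand). It is printed with SRNA4846714, which starts 1 nucleotide before it and was not a member. The other two are SRNA21191644, from U4 snRNA, and SRNA6657865, from U2 snRNA, both components of the spliceosome. Capitals mark bases 2 to 10 of SRNA21191644, which has a cleavage record.
SRNA14814416: gactgtgaaactgcgaatggc
SRNA4846714: agactgtgaaactgcgaatgg
SRNA21191644: tCGAGAATTTctggaagggct
SRNA6657865: agtttaatatctgatatgtgggcc

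SRNA14814416 had 1.60, 1.79 and 0.454 RPM at W0h, 6.51, 8.36 and 1.39 RPM at W6h and 4.07, 7.92 and 2.50 RPM at W12h. Its level was highest at 6 h in replicates 1 and 2 and at 12 h in replicate 3. Its neighbour SRNA4846714 had 12 h to 0 h ratios of 0.418, 0.533 and 4.68, in opposite directions between replicates. SRNA21191644, which matched U4.2 (AT3G06900, chromosome 3, 2178204 to 2178224) and U4.5 (AT5G04085, chromosome 5, 8972482 to 8972502) on the minus strand, went from 1.98 to 6.32, from 2.17 to 6.96 and from 0.113 to 0.398 RPM. SRNA6657865 went from 1.16 to 2.53, from 0.435 to 2.07 and from 0.283 to 0.455 RPM.

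Of the members with a sequence, 2 were variants of microRNAs. SRNA25156325 is miR159a, and equally miR159b, without the last base, and matched the MIR159a and MIR159b genes on chromosome 1. It is from a family that silences GAMYB-type MYB transcription factors. SRNA24346076 is miR157a, of the family that silences SPL transcription factors, with an added C (in capitals) that the genome does not have at that place. They are printed beside miR159a and miR157a. The capitals in SRNA25156325 again mark bases 2 to 10.
SRNA25156325: tTTGGATTGAagggagctct
ath-miR159a: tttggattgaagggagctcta
SRNA24346076: ttgacagaagatagagagcacC
ath-miR157a-5p: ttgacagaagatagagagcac

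SRNA25156325 was among the most abundant members. Its levels from W0h to W12h were 145, 132, 143, 194 and 387 RPM in replicate 1 and 86.6, 72.8, 138, 151 and 418 RPM in replicate 2. In replicate 3 they were 0.680, 2.85, 1.77, 6.94 and 1.65 RPM, so that the highest value there was at 6 h. The full-length ath-miR159a had ratios of 0.444, 0.666 and 1.29 between 12 h and the dark, that is, lower at 12 h in replicates 1 and 2. Those of ath-miR159b-3p were 0.533, 0.773 and 1.52, and those of ath-miR159c, another family member, 1.89, 2.64 and 1.44. In the dark ath-miR159a had 9556 and 6768 RPM in replicates 1 and 2 and 103 RPM in replicate 3, so the low level of replicate 3 was shared by both forms. MicroRNA values were scaled to mapped reads of 20 to 24 nt, unlike those of the siRNAs, so levels of the 2 kinds are not compared. SRNA24346076 had 24.4, 23.9 and 47.4 RPM at W0h, 45.1, 50.6 and 63.3 RPM at W6h and 38.7, 50.5 and 91.1 RPM at W12h, with ratios of 1.59, 2.11 and 1.92. The ratios of ath-miR157a-5p itself were 1.17, 1.68 and 1.11. The variant with T in place of the added C, SRNA24346254, had ratios of 1.44, 2.34 and 1.99 and missed the rule in replicate 1 only. A further member, SRNA24346138, has a row number between these variants, and since row numbers follow the alphabetical order of the sequences, its first 21 bases must be those of ath-miR157a-5p. Its ratios were 1.61, 2.05 and 2.28.

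The remaining members have no sequence in the sources used here and are described by their levels. SRNA5553524 had the highest mean level of all 48 (241 RPM over the 15 libraries) and a course of its own. In replicate 1 it had 79.7 RPM at W0h, 117 at W1h, 127 at W3h, 1144 at W6h and 392 at W12h. In replicate 2 it had 56.6, 41.6, 206, 1012 and 437 RPM. In replicate 3 it had 0.510, 0.792, 2.10, 3.91 and 1.82 RPM. The peak was at 6 h in all 3 replicates, and every value of replicate 3 was below every value of the other replicates.

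SRNA11861927 had a mean level of 181 RPM and went from 224 to 442, from 180 to 430 and from 0.454 to 1.08 RPM. SRNA16955901 went from 199.7 to 370, from 34.9 to 294 and from 36.6 to 111 RPM, and its W1h to W6h values in replicate 1 (103 to 156 RPM) were below its dark value. SRNA23965904 went from 101 to 168, from 64.2 to 201 and from 6.29 to 15.1 RPM. SRNA16732209 went from 65.2 to 122, from 75.7 to 154 and from 1.53 to 3.53 RPM. SRNA5665572, with one of the 8 largest mean ratios (5.85), rested on 27, 5 and 1 reads in the dark. Row numbers placed 8 members, SRNA16955361 to SRNA16955904, between the same neighbouring known sequences, so that all 8 start with GGA. Among them, SRNA16955904 had 1.21, 0.815 and 18 RPM at W0h, 3.46, 2.95 and 35.6 RPM at W6h and 7.42, 5.21 and 56.3 RPM at W12h, and was highest in replicate 3.

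Over the 48 members the mean 12 h to 0 h ratio ran from 1.80 to 12.4 with a median of 3.16. It was at least 4 in 14 members and below 2 in 6. Together the members made up 2.80%, 2.08% and 1.06% of the siRNA RPM in the dark and 11.2%, 10.4% and 2.81% at 12 h in replicates 1, 2 and 3. Over all 2855 siRNAs the median log2 ratio of 12 h to 0 h was -0.52, and the mirrored rule (at most 1/1.5 in each replicate) was met by 197 siRNAs (6.90%). This shift of the whole table was present in replicates 1 and 2 (-0.85 and -0.66) and not in replicate 3 (0.0049). By limma, 112 siRNAs (3.92%) were called lower at W12h than at W0h, and 8 (0.280%) when the libraries were rescaled to remove the shift.

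Replicate 3 also differed in level. At W0h the median ratio of replicate 3 to the mean of replicates 1 and 2 was 0.305 in the members and 0.594 over all tested siRNAs. The part of the kit in this was not tested, as the kit and replicate 3 cannot be told apart. Low read numbers limit the ratios as well: 28 of the 48 members had fewer than 10 reads at W0h in at least 1 replicate and 9 had a single read, compared with 1823 of 2855 (63.9%) and 109 of all tested siRNAs. The other 20 members, among them SRNA11153156, SRNA16955904 and SRNA24346076, had 10 or more reads in each dark library.

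One feature that the rule did not use is the first base. It is known for each member, from the sequence or from the row number. It was A in 4 of 48 members (8.33%) and in 1224 of 2855 tested siRNAs (42.9%). G began 20 members (41.7%) against 15.7% of all tested siRNAs, C began 13 (27.1%) against 12.4%, and T, which stands for U in the RNA, began 11 (22.9%) against 28.2%. The G group includes the GGA members from one row-number bracket and both tRNA-Val variants. The C group includes 4 overlapping tRNA-Glu fragments. These first-base counts are therefore not counts of independent sequences. In plants, siRNAs that start with A are known to be favoured by AGO4-type Argonautes and those that start with U by AGO1. Among siRNAs with a sequence, exact sense matches to tRNA genes were 6 of 16 members (37.5%) and 37 of 624 tested siRNAs (5.93%). Those to rRNA and snRNA genes were 2 each of 16 members against 5 and 3 of 624. The 3 members that differ from tRNA genes by 1 base are not among the 6. They count as without an exact match, as do 107 of the 624, and how many of the 107 come from tRNAs was not examined. Nor is SRNA14975183 among the 6, since it counts as antisense to a tRNA or rRNA gene as annotated (4 of the 624). None of the 16 was assigned to a protein-coding gene, to a region without a gene or to a gene of another class, which held 99, 60 and 140 of the 624. Classes were assigned in a fixed order, with microRNA variants and structural RNAs before protein-coding genes. Some of the 16 also matched protein-coding genes exactly, among them SRNA6657865 (AT2G20410) and SRNA21191644 (AT1G49245). Several of the fragments counted here overlap in sequence, so they are not independent.

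The lengths were spread over all sizes. Of the 16, 4 were 20 nt, 2 each were 21, 22 and 23 nt, and 6 (37.5%) were 24 nt, and 24 nt was also the most frequent length among the 624 (34.6%). Members were more often abundant, with 10 RPM or more on average at W0h in 16 of 48 (33.3%) against 9.35% of all tested siRNAs, although the dark level is part of the rule. At the other end, 21 members (43.75%) were below 1 RPM in the dark, against 39.8% of all tested siRNAs.

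To see when the rise began, each member's ratio to W0h was followed. Ratios of 1.5 or more in all 3 replicates that lasted to 12 h were reached at 12 h in 32 members, at 6 h in 13 and at 3 h in 3 (SRNA5553524, SRNA16057357 and SRNA11290873), and in none at 1 h. Without the 2 identical libraries, 4 members had reached them at 3 h and 12 at 6 h. At single time points the ratio was reached by 0 members at 1 h (0.21% of all siRNAs), 3 at 3 h (0.736%) and 16 at 6 h (0.946%). The median member stood at 1.04 times its dark level at 1 h, 1.29 at 3 h, 1.87 at 6 h and 3.16 at 12 h, and over replicates 2 and 3 alone at 1.01 at 1 h and 1.28 at 3 h. These ratios share the W0h libraries with the rule and are a description. At 12 h the level was the highest of the 5 time points in all 3 replicates in 30 members. The W12h libraries are part of the rule, so this count is a description too. The same count over all tested siRNAs was not made.

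The log2 difference between W6h and W1h comes from libraries whose ratio was not in the rule. Of W1h and W6h the rule asked only that values be above 0, as it did for every tested siRNA. The spread behind each SE and p was estimated over all 15 libraries, W0h and W12h among them. The p-values are therefore not independent of the rule. The comparison asks whether the members had risen before 12 h. By limma on log2(RPM + 0.1) with the replicate as a block, 5 of 2855 siRNAs (0.175%) were higher at W6h at a Benjamini-Hochberg adjusted p of 0.05 or less, and all 5 were members. The member with the smallest adjusted p was SRNA5553524, with a log2 difference of 3.35 ± 0.40 (SE, 3 replicates, limma adjusted p = 0.000537). The tRNA-Glu fragment SRNA11153156 was higher by 2.00 ± 0.37, the chloroplast 16S rRNA fragment SRNA22803624 by 1.96 ± 0.35, the 18S rRNA fragment SRNA14814416 by 1.63 ± 0.31 and SRNA16955904 by 1.35 ± 0.25, each with a limma adjusted p of 0.0324. Each of the 5 was higher at W6h than at W1h in all 3 replicates.

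The calls changed when the identical libraries were left out. Where W1h of replicate 1 is left out, the replicate block also brings W0h and W12h of that replicate into the fitted difference. Without W3h of replicate 1 alone, SRNA5553524, SRNA11153156 and SRNA22803624 were still called, and without W1h of replicate 1 alone only SRNA5553524 was. Without both, SRNA5553524 alone was called (0.035% of siRNAs, log2 difference 3.47 ± 0.42, limma adjusted p = 0.000653), and for the other 4 the differences of 1.88, 1.92, 1.87 and 1.5 remained close to the first values while their limma adjusted p rose to 0.133 to 0.216. The log2 differences were positive in 47 of 48 members against 43.5% of all tested siRNAs, with a median of 0.73 in the members and -0.06 over all. Without the identical libraries they were positive in 45 of 48 against 51.3%, with medians of 0.83 and 0.02. Within replicates, W6h was above W1h in 42, 42 and 43 of the 48 members and in 37.6%, 48.7% and 49.7% of all tested siRNAs. By edgeR's quasi-likelihood test on the recovered reads, 10 siRNAs were higher at W6h (0.35%), of which 6 were members, the 5 above and SRNA24346138. Without the identical libraries it called 1, again SRNA5553524.

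Between W1h and W3h, and between W3h and W6h, limma called 0 siRNAs higher (0% each). At an unadjusted p under 0.05, 3 and 15 members were higher, of 47 and 32 siRNAs in all, and edgeR called 0 and 3 siRNAs (0.105%), the latter all members. Without the identical libraries limma and edgeR called 0 siRNAs in both comparisons, and 4 and 10 members were higher at an unadjusted limma p under 0.05 (of 86 and 34 siRNAs). The median log2 difference of the members was 0.28 from W1h to W3h (0.09 over all) and 0.47 from W3h to W6h (-0.15 over all). Without the identical libraries these medians were 0.37 and 0.48. Against W0h, limma called 0 siRNAs higher at W1h and 0 at W3h (0% each, with 9 and 40 at an unadjusted p under 0.05 and 0 by edgeR at both times, and also 0 by limma and edgeR without the identical libraries). It called 5 at W6h (0.175%), all members, or 2 without the identical libraries, and 41 at W12h (1.44%), of which 32 were members. These contrasts share the dark libraries with the rule, so nothing is read from the members' share.

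At 24 h, with replicate 1 as the only library, all 48 members were above 0, while 276 of all tested siRNAs (9.67%) were at 0. The members stood at 1.5 times W0h or more in 31 of 48, against 6.37% of all tested siRNAs, with a median of 2.06 times the dark level against 0.419 over all. The same replicate's dark library is part of the rule. Set against W6h, 14 members (7.43% of all siRNAs) were at 1.5 times or more, and against W12h 9 members (13% of all siRNAs). The median member was at 1.12 times its 6 h level, against 0.513 over all tested siRNAs. It was at 0.891 times its 12 h level, against 0.750 over all. The 12 h library is part of the rule too. The course after 12 h was not uniform. SRNA25156325 rose from 387 to 711 RPM and SRNA11861927 from 442 to 860 RPM, SRNA11153156 was close to its 12 h level at 183 RPM, and SRNA5553524 fell from 392 to 216 and SRNA16955901 from 370 to 122 RPM. These are single values without a replicate check.

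Cleavage records tie an siRNA (the query) to a transcript whose degradome reads begin opposite bases 10 and 11 of the query. With at least 5 reads at the site, category 2 or less and p of 0.05 or less as the caller gave them, 3 of 48 members were queries (6.25%, Wilson 95% interval 2.15 to 16.8%), compared with 157 of 2807 other tested siRNAs (5.59%, 4.80 to 6.51%). The intervals cover counting error only. The 3 target sites are printed 5′ to 3′ with the base at the cleavage position in capitals. The MYB33 and AT4G38280 sites can be laid against bases 2 to 10 of their queries above. The AT1G07160 site is printed without the gap in its alignment and is shorter than its query of 21 nt, so it cannot be laid base by base. The caller's pairing penalty was 9 there, against 3.5 for the MYB33 site and 5.5 for the AT4G38280 site.
MYB33 site: ggagcucccuUcauuccaau
AT4G38280 site: ggucuauucaGuucucucuc
AT1G07160 site: cgcccuuccagAgaugauga

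The miR159 variant SRNA25156325 was the query at position 1172 of MYB33 (AT5G06100.2, chromosome 5, gene at 1837835 to 1840727), a GAMYB-type transcription factor. In the dark library 364 of the 2315 degradome reads of the transcript (15.7%) began there, in category 0, which means the highest peak of the transcript. In the light library 230 of 1423 reads began at the same position, and there the listed query was SRNA25157350, an siRNA of 22 nt that was not a member. Since full-length miR159 pairs with the same site, the records do not tell these small RNAs apart. The chloroplast fragment SRNA14975183 was the query at position 498 of AT4G38280 in both libraries, with 31 of 947 reads in the dark (3.27%) and 32 of 709 in the light (4.51%), also in category 0, while its p was 0.0458 and 0.0477. The U4 fragment SRNA21191644 was the query at position 838 of AT1G07160 in the light only, with 8 of 74 reads. With 1 library per condition no change between dark and light was tested. Below 5 reads there were 2 more records, SRNA17917348 at AT2G11270 in the dark (2 reads) and SRNA14814416 at CYCB1;4 (AT2G26760) in the light (3 reads), and the latter lay between positions 11 and 13, where 2 siRNAs that are not members had 5 and 11 reads.

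The threshold of the rule cut through a continuous range. Just inside it were SRNA17242722, whose lowest ratio was 1.51, SRNA17745922 with 1.52 and the tRNA-Glu fragment SRNA16672911 with 1.52. Just outside were SRNA24379525 with a lowest ratio of 1.497, SRNA21028578 with 1.495 and SRNA16955902 with 1.48. SRNA21028578 is a tRNA-Glu fragment starting at nucleotide 1, and SRNA16955902 has a row number next to those of members SRNA16955901 and SRNA16955903. Its level went from 93.6 to 138 RPM in replicate 1, from 13.1 to 50.2 RPM in replicate 2 and from 34.6 to 126 RPM in replicate 3.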

How the data were processed

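RPM values of 4255 siRNAs were deposited by the authors in 1 table over 18 small RNA libraries. Per the submitters' processing notes, Bowtie 1.0.0 and TAIR10 were used. All 18 sample columns were matched to their labels, and 0 columns of per-sample values were left unused. The deposited degradome records are of another kind (transcript, query, reads, category and p), made by the authors with CleaveLand. Members and lists were chosen with earlier results of these data known.

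Whole reads were recovered from the RPM steps (100% of siRNA values within 0.05 of a whole number). The main test was limma 3.58.1 (R 4.3.3) on log2(RPM + 0.1), with time and replicate, over the 2855 siRNAs above 0 in 15 libraries, with Benjamini-Hochberg adjustment. A fold on this scale understates changes of low siRNAs. edgeR 4.0.16 and DESeq2 1.42.0 on recovered reads were alternatives, and all were tested on simulated data. Libraries with the same replicate number deviated together (lowest correlation 0.82, against at most 0.71 between numbers), and the replicate was the block.

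Sequences came from the cleavage queries and the supplementary sequence list. They were matched exactly to the RefSeq copy of TAIR10, and with up to 2 mismatches for members without a match. The siRNAs named were the 8 with the largest mean 12 h to 0 h ratio, the 8 most abundant, those called at W6h against W1h (up to 12), queries of cleavage records with 5 or more reads, the 3 on each side of the threshold, and those sharing 16 nt with a microRNA or 17 nt with a phasiRNA. Other siRNAs (SRNA20955720, SRNA17917023, SRNA17917348, SRNA9818681, SRNA6657865, SRNA24346138, SRNA16057357, SRNA11290873, SRNA12022398 and the comparison sequences) were named after their values were seen. Alternatives were other pseudocounts, no block, a level filter, no trend, rescaled libraries, each replicate left out, other ratios and other cleavage limits. Leaving out W1h and W3h of replicate 1, and asking for 10 reads in the dark, were chosen after seeing the data.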

Additional observations from a re-analysis of the deposited data

Results flagged for a closer look

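The W24h libraries of replicates 2 and 3 held values above the dark level for some members, and for many other siRNAs. These libraries were left out of every comparison because their siRNA values bore no relation to those at W12h of the same replicate. In replicate 2, 12 of the 48 members stood at 1.5 times W0h or more, against 758 of 2855 tested siRNAs. At 0 were 15 members, against 648 of the 2855 (22.7%). In replicate 3 the numbers were 13, 913, 15 and 648. The members' share at 1.5 times W0h or more was below that of all tested siRNAs in both replicates. Nothing about the members is read from these counts. SRNA12022397, the tRNA-Glu fragment starting at nucleotide 3, was listed at 171 RPM at W24h of replicate 2, against 5.79 RPM at W12h. As the siRNA values of that W24h library do not follow those at W12h, this is not read as a rise. The cause was not tested.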

How the results depend on the processing

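The median log2 difference of the members between W6h and W1h stayed positive under every alternative run. It was 0.73 first, 0.42 with a pseudocount of 1 RPM, and 0.68 to 0.80 when each replicate was left out. The 5 members called at W6h against W1h kept a positive difference under all 13 alternatives. The number called depended on the setting. The number of siRNAs called higher at W6h than at W1h was 5 first, 2 with a pseudocount of 1, 1 with 0.01, 1 without a variance trend, 3 with rescaled libraries, 10 by edgeR, 20 by DESeq2 and 1 to 19 when each replicate was left out (19 without replicate 3). Without W1h and W3h of replicate 1 it was 1 by limma and 1 by edgeR, without W1h of replicate 1 alone 1, and without W3h of replicate 1 alone 3. Of these, members were 2, 1, 1, 3, 6, 11, 1 to 11, 1, 1, 1 and 3. Without the replicate block, the pairing of libraries by replicate was lost and 0 siRNAs, and 0 members, were called at W6h against W1h, 0 at W6h against W0h and 0 at W12h against W0h.

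For W6h against W3h, where limma called 0, the counts were 3 by edgeR, 7 by DESeq2 and 0 to 8 with a replicate left out. For W6h against W0h, with 5 first, they were 3 with either other pseudocount, 2 without a trend, 16 with rescaled libraries, 18 by edgeR, 23 by DESeq2, 1 to 19 with a replicate left out, and 2 by limma and 9 by edgeR without the identical libraries. For W12h against W0h, with 41 first, they were 27 without a trend, 91 with rescaled libraries, 92 by edgeR, 90 by DESeq2, 1 to 65 with a replicate left out, and 27 by limma and 88 by edgeR without the identical libraries. The rule found 48 members first, 82 at the lower and 21 at the higher alternative ratio, 76 to 82 with a replicate left out, 116 with rescaled libraries (all 48 among them) and 20 with 10 or more reads at W0h. Members that had risen by 6 h numbered 16 first, 25 at the lower and 5 at the higher alternative ratio. Cleavage events numbered 3 first, 1 at p of 0.01 or less, 2 with at least 10 reads and 5 with no minimum of reads. The cause of these differences was not tested. Limits are the identical W1h and W3h libraries of replicate 1, the other kit and low levels of replicate 3, 1 usable library at 24 h, sequences for 16 of 48 members, and ratios from few reads.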
